A study of Bos taurus with 8 samples.

Results

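Gene expression in the inner cell mass (ICM) of bovine blastocysts of day 9 was compared with that in whole morulae of day 5, to describe what the inner lineage gains and loses after the morula. The samples were those labelled ICM and morula, 2 replicates each and so 4 of the 8 samples of the series, and all 12552 genes with a named probe were compared. The 2 trophectoderm (TE) samples of day 9 are given beside them where they bear on the ICM, and the 2 whole blastocyst samples of day 9 entered the shared estimate of the spread and are given beside 2 stress genes. All embryos were produced in vitro, from slaughterhouse oocytes fertilized with sperm of 1 bull and cultured in synthetic oviduct fluid at low oxygen, and no group carried a mutation or received a treatment. Every sample was RNA of pooled embryos, amplified before labelling, and shared its two-colour array with a common blastocyst pool, the sample being Cy3 in each first replicate and Cy5 in each second one. The paper lists the 2 whole blastocyst samples as the same material as its blastocyst pools, so they may not be independent of this common pool. ICM and TE were cut apart by hand with tungsten needles from blastocysts of good quality, some of them hatching or hatched, and the dissected ICM keeps some TE cells. Morulae were not dissected, so lineage, day of culture and dissection cannot be told apart in this comparison. In bulk RNA, fewer cells of a type and less RNA per cell cannot be told apart either.

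A morula consists of compacted cells that have only begun to polarize. Its outer cells become the TE, an epithelium that pumps fluid into the blastocyst cavity and later forms part of the placenta. Its inner cells become the ICM, which holds the epiblast, marked by *NANOG* and *SOX2*, and the primitive endoderm (hypoblast), marked by GATA factors, *SOX17* and the basement membrane proteins that it lays down. Between these stages the embryo uses up transcripts inherited from the oocyte, builds tight junctions and desmosomes, and takes up more glucose. Cattle differ from mice in that TE and ICM stay undecided for longer and the TE proliferates for many days before implantation.

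The values below are log2 ratios of a sample over the blastocyst pool after loess normalization of mean spot intensities, so that 0 is the level of the pool and a difference of 1 is 2-fold. The pool was made of blastocysts, which contain ICM and TE, so levels near the pool in these tissues follow in part from the reference. A gene was called higher or lower in the ICM at a Benjamini-Hochberg adjusted p under 0.05 in limma and a difference of at least 2-fold, and each gene was represented by its brightest probe. Median intensities of the sample channel were 229.9 and 402 on the ICM arrays and 403 and 536 on the morula arrays, with local backgrounds between 47.5 and 60.1. On these arrays the share of gene probes above background in the sample channel was 90.3% to 94.5%. In the pool channel it was 93.8% and 92.1% on the ICM arrays and 78.8% and 95.5% on the morula arrays. Ratios of morula replicate 1 thus rest on a pool channel with fewer probes above background. Log2 ratios had standard deviations of 0.284 and 0.287 in the ICM and 0.753 and 0.802 in morulae, and with 2 arrays a group the number of arrays limits the precision of each value.

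By these criteria 1255 genes were higher in the ICM than in morulae, which is 10.0% of the genes tested, and 870 genes were lower, which is 6.93%. Differences of at least 4-fold were found for 407 higher and 151 lower genes, and differences of at least 10-fold for 102 higher and 16 lower genes. The median fold of the called genes was 3.07 for those higher and 2.58 for those lower in the ICM. Without the fold minimum 2771 genes were higher and 2340 lower. All 2125 called genes had the same sign in replicate 1 and in replicate 2, which a call from 2 replicates itself favours, so it is no separate support. The differences of the 2 replicates correlated across genes with r = 0.923, with the pool and the array design in common and with genes not being independent replicates. The number of calls in each direction depended on scaling: the called genes were 59.1% higher after loess, but 40.0% higher (986 genes, against 1477 lower) when each array was centred on its median, which moved the median difference of all genes to -0.03 on the log2 scale from 0.05. Of the called genes 1624 had more than 1 probe, of which 667 had another probe with the same call and 11 another probe with the opposite call.

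**Figure D1:**
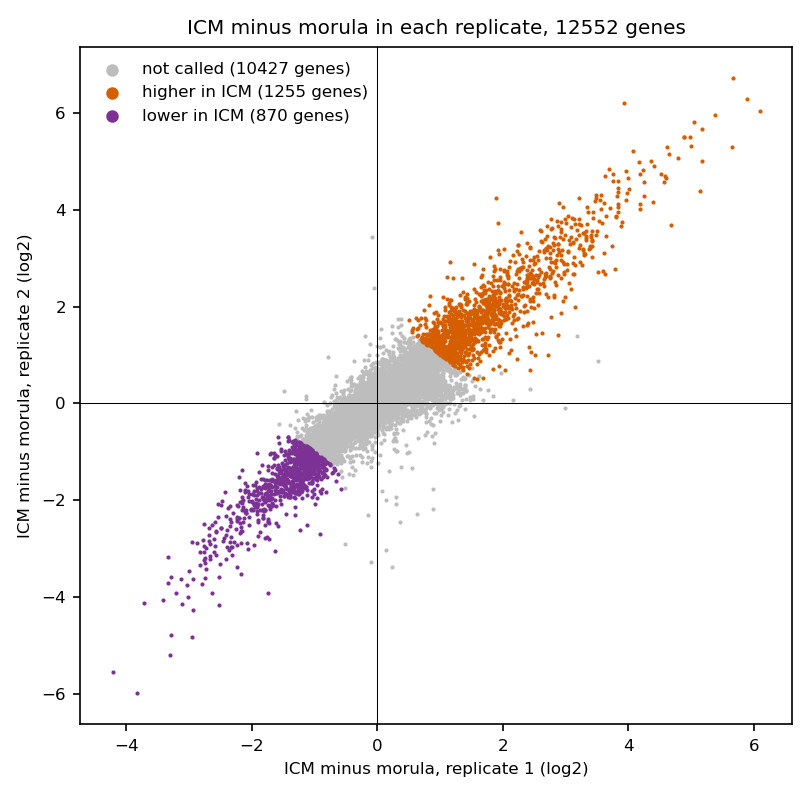
Difference of ICM minus morula on the log2 scale in replicate 1 (horizontal axis) and replicate 2 (vertical axis) for the 12552 genes, 1 point per gene, with called genes in colour. Called genes lie in the upper right (1255 higher) or the lower left (870 lower), and the higher genes reach further from 0 than the lower ones.

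Relative to the blastocyst pool, the genes that differed most were low in morulae rather than very high in the ICM, a form that a reference containing ICM favours. *PLS1*, which encodes plastin 1, a bundler of actin in microvilli, stood at -0.68 and -0.27 in the ICM, against -6.35 and -7.00 in morulae (73.6-fold, SE 0.27 on the log2 scale, adjusted p = 6.19e-05). *AGRN*, the basement membrane proteoglycan agrin, stood at 0.62 and 0.99 in the ICM, against -5.27 and -5.31 in morulae (68.3-fold, SE 0.13, adjusted p = 2.64e-05). *PAGE4*, a gene of the G antigen family, stood at -0.45 and -0.56 in the ICM, against -6.54 and -6.61 in morulae (67.2-fold, SE 0.12, adjusted p = 2.64e-05). For each of these the gap between groups was many times the gap between replicates, and *PLS1* lay above background on 1 of the 2 morula arrays. *SLC25A37*, the mitochondrial iron importer mitoferrin 1, was the member of this set that the ICM held far above the pool, at 2.90 and 2.90, against -2.47 and -3.06 in morulae (50.9-fold, SE 0.15, adjusted p = 2.7e-05; 1 of the 2 morula arrays above background). The TE samples had it at 2.77 and 2.64, so the high level over the pool was shared by both dissected tissues. Of the 5 probes of *SLC25A37* no other was called, and over the alternatives its difference was as low as 1.21 on the log2 scale. The other genes among the 15 with the largest rise were *APOA1* (apolipoprotein A1, 44.4-fold), *PQLC3* (current symbol *SLC66A3*, 43.1-fold), *MYOF* (myoferlin, a membrane repair protein, 42.9-fold), *HMOX1* (heme oxygenase 1, 37.9-fold), *ALDH1A3* (a retinoic acid synthesizing enzyme, 36.8-fold), *PLAU* (urokinase, 36.6-fold), *ANXA3* (annexin A3, 35.9-fold), *FLRT3* (a membrane protein that binds fibroblast growth factor receptors, 34.2-fold), *COX1* (33.7-fold), *KRT19* (keratin 19, 31.1-fold) and *ACTB* (beta actin, 30.7-fold). *COX1* was the least precise of them, with a standard error of 0.77 on the log2 scale and saturated spots on 3 arrays. *ANXA3* and *FLRT3* lay above background on 1 of the 2 morula arrays. Of the 4 probes of *ALDH1A3* no other was called. Over the alternatives the difference was as low as 1.49 on the log2 scale for *ALDH1A3* and 1.87 for *PLAU*.

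**Figure D2:**
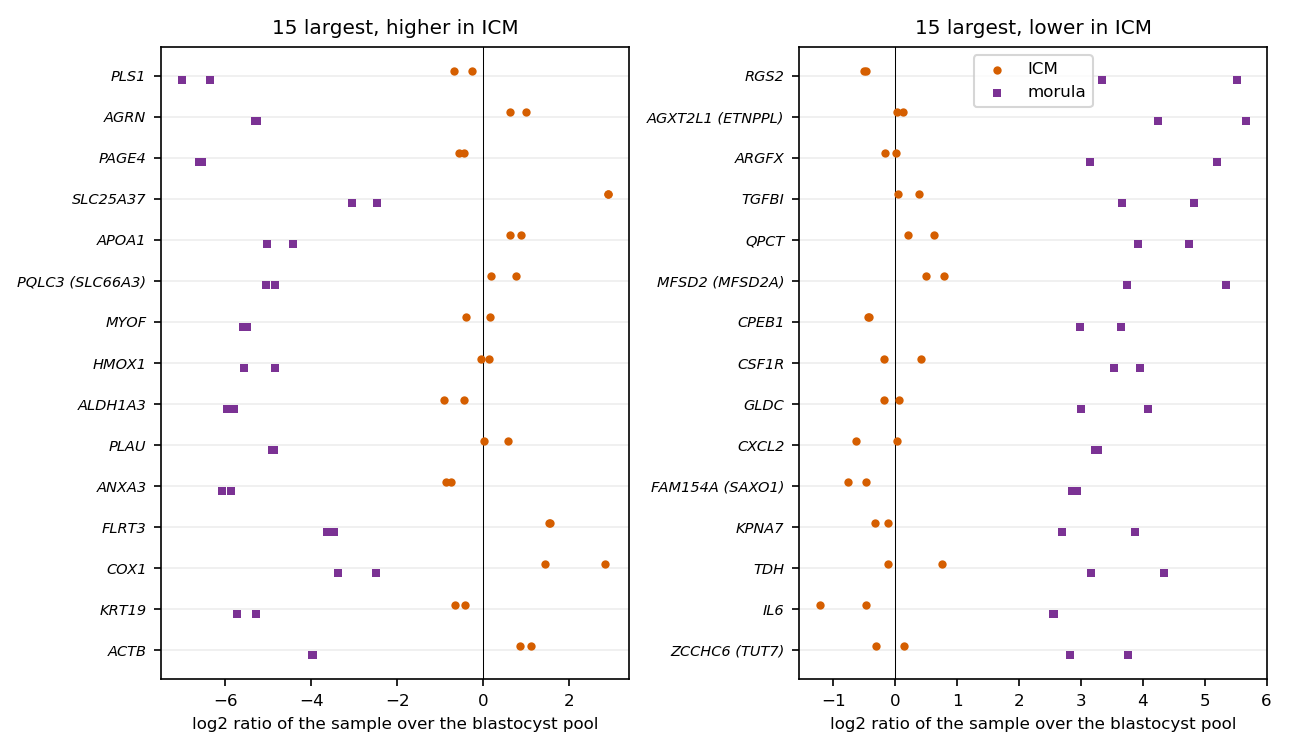
Log2 ratio over the blastocyst pool of the 15 genes with the largest rise (left panel) and the 15 with the largest fall (right panel) in the ICM, with circles for the 2 ICM samples and squares for the 2 morula samples. Genes on the left lie between -7.00 and -2.47 in morulae, and genes on the right lie near the pool in the ICM, between -1.21 and 0.79.

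Among the genes that fell most, the ICM was near the pool, which itself contains ICM, and morulae were far above it. *RGS2*, a regulator of G protein signalling, stood at -0.50 and -0.47 in the ICM, against 3.34 and 5.52 in morulae (30.1-fold lower, SE 0.54, adjusted p = 0.00106). *AGXT2L1* (current symbol *ETNPPL*, a phosphoethanolamine lyase) stood at 0.03 and 0.12 in the ICM, against 4.25 and 5.67 in morulae (29.5-fold lower, SE 0.39, adjusted p = 0.000337). *ARGFX*, a homeobox gene of the early embryo, stood at -0.17 and 0.01 in the ICM, against 3.14 and 5.20 in morulae (19.1-fold lower, SE 0.58, adjusted p = 0.00248). The morula replicates of these 3 genes were far apart, with replicate 2 the higher, yet neither morula sample came near the ICM samples. The list went on with *TGFBI* (an extracellular matrix protein, 16.4-fold lower), *QPCT* (glutaminyl cyclase, 15.2-fold), *MFSD2* (*MFSD2A*, a lysolipid transporter, 14.8-fold), *CPEB1* (which controls polyadenylation of stored mRNAs, 13.4-fold), *CSF1R* (12.4-fold), *GLDC* (the glycine decarboxylase of mitochondria, 12.1-fold), *CXCL2* (11.8-fold), *KPNA7* (an importin of oocytes, 11.3-fold), *TDH* (threonine dehydrogenase, 10.8-fold), *IL6* (interleukin 6, 10.5-fold) and *ZCCHC6* (*TUT7*, an RNA uridylyl transferase, 10.4-fold). *FAM154A* (*SAXO1*) stood at -0.48 and -0.76 in the ICM, against 2.86 and 2.94 in morulae (adjusted p = 0.000171), and was not above background in the ICM, so that no fold is given. Another of the 4 probes of *CXCL2* was called in the opposite direction.

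Pluripotency genes did not move together. Of 19 measured genes of a list of pluripotency and epiblast factors, 3 were higher (*NANOG*, *KLF5*, *SALL1*) and 2 lower (*KLF4*, *SOX2*) in the ICM than in morulae, and 14 were not called. Their median difference was 0.06 on the log2 scale, beside 0.05 over all genes, and it was -0.004 with normexp background correction, -0.007 with the series matrix values and -0.04 as the mean over probes. *NANOG*, a homeodomain factor of the epiblast, stood at 0.99 and 1.59 in the ICM, against -1.00 and -0.83 in morulae (4.61-fold, SE 0.23, adjusted p = 0.000931). *SOX2*, a second core factor of pluripotent cells, ran the other way, at 0.94 and 1.19 in the ICM, against 2.08 and 2.37 in morulae (2.23-fold lower, SE 0.19, adjusted p = 0.00481). *KLF4*, a zinc finger factor of naive pluripotency in mice, stood at 0.48 and 0.80 in the ICM, against 2.42 and 2.43 in morulae (3.44-fold lower, SE 0.12, adjusted p = 0.000206). For these 3 genes the groups did not overlap, and ICM and morula samples lay on opposite sides of the pool only for *NANOG*. The fall of *SOX2* was below 2-fold without morula replicate 2 (-0.97) and as the mean over its probes (-0.92).

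In the TE, *NANOG* read -2.37 and -2.50 and *SOX2* at -2.02 and -2.07, so the ICM was 13.2-fold higher than the TE for *NANOG* (adjusted p = 0.0033) and 8.67-fold higher for *SOX2* (adjusted p = 0.0033). Without ICM replicate 2 the adjusted p for *SOX2* was 0.0502. Both epiblast markers thus separated the dissected ICM from the TE as the labels have it. *PRDM14*, *ZIC2* and *STAT3* followed the same shape without a call against the morula. *PRDM14*, a repressor that guards pluripotency in mice, stood at 0.50 and 1.03 in the ICM, against -0.54 and -0.60 in the TE (2.53-fold, adjusted p = 0.0183), with morulae at 1.37 and 1.26. *ZIC2*, a zinc finger factor, stood at 1.20 and 0.66 in the ICM, against -1.39 and -1.08 in the TE (4.49-fold, adjusted p = 0.0248), with morulae at 0.24 and 0.07. *STAT3*, the transducer of the leukaemia inhibitory factor and interleukin 6 receptors, stood at 0.87 and 0.67 in the ICM, against -0.56 and -0.71 in the TE (2.64-fold, adjusted p = 0.00532), with morulae at 0.89 and 0.53. For *STAT3* the ICM and morula samples overlapped, and its difference from the morula was 1.04-fold (adjusted p = 0.739). Each of these 3 calls against the TE was lost without ICM replicate 2 and without 1 or both TE replicates, and that of *ZIC2* also without ICM replicate 1. The differences were then 1.32 and 1.35 on the log2 scale for *STAT3*, 1.08 to 1.47 for *PRDM14* and 1.72 to 2.62 for *ZIC2*. Processing mattered as well: *STAT3* was not called as the mean over its probes (0.41, adjusted p = 0.0539), nor *PRDM14* with normexp (1.14, adjusted p = 0.0658).

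The calls of *KLF5* and *SALL1* depended on single arrays and on the processing. *KLF5* stood at 0.18 and 0.41 in the ICM, against -0.67 and -1.10 in morulae (2.27-fold, SE 0.22, adjusted p = 0.00825). *SALL1* stood at 1.12 and 0.45 in the ICM, against -0.25 and -0.31 in morulae (2.08-fold, SE 0.19, adjusted p = 0.00673), with 1 of the 2 morula arrays above background. Neither group overlapped the other, but the call of *KLF5* was lost without ICM replicate 1 (adjusted p = 0.0505), ICM replicate 2 (0.0615) or morula replicate 2 (0.78 on the log2 scale), and that of *SALL1* without ICM replicate 1 (0.0603) or morula replicate 1 (0.76 on the log2 scale). *KLF5* was also under 2-fold after median centring (0.92), with the series matrix values (0.75) and as the mean over its probes (0.63), and *SALL1* with normexp (0.73), with the series matrix values (0.94) and as the mean over its probes (0.32). *ESRRB*, *TFCP2L1*, *SALL4*, *LIN28B*, *DPPA4*, *MYCN*, *ZSCAN10*, *TCL1A* and *TRIM28* had differences of -0.28 to 0.22 on the log2 scale, *TBX3* of 0.69 and *ETV4* of 0.43. *POU5F1* was not analysed here.

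**Figure D3:**
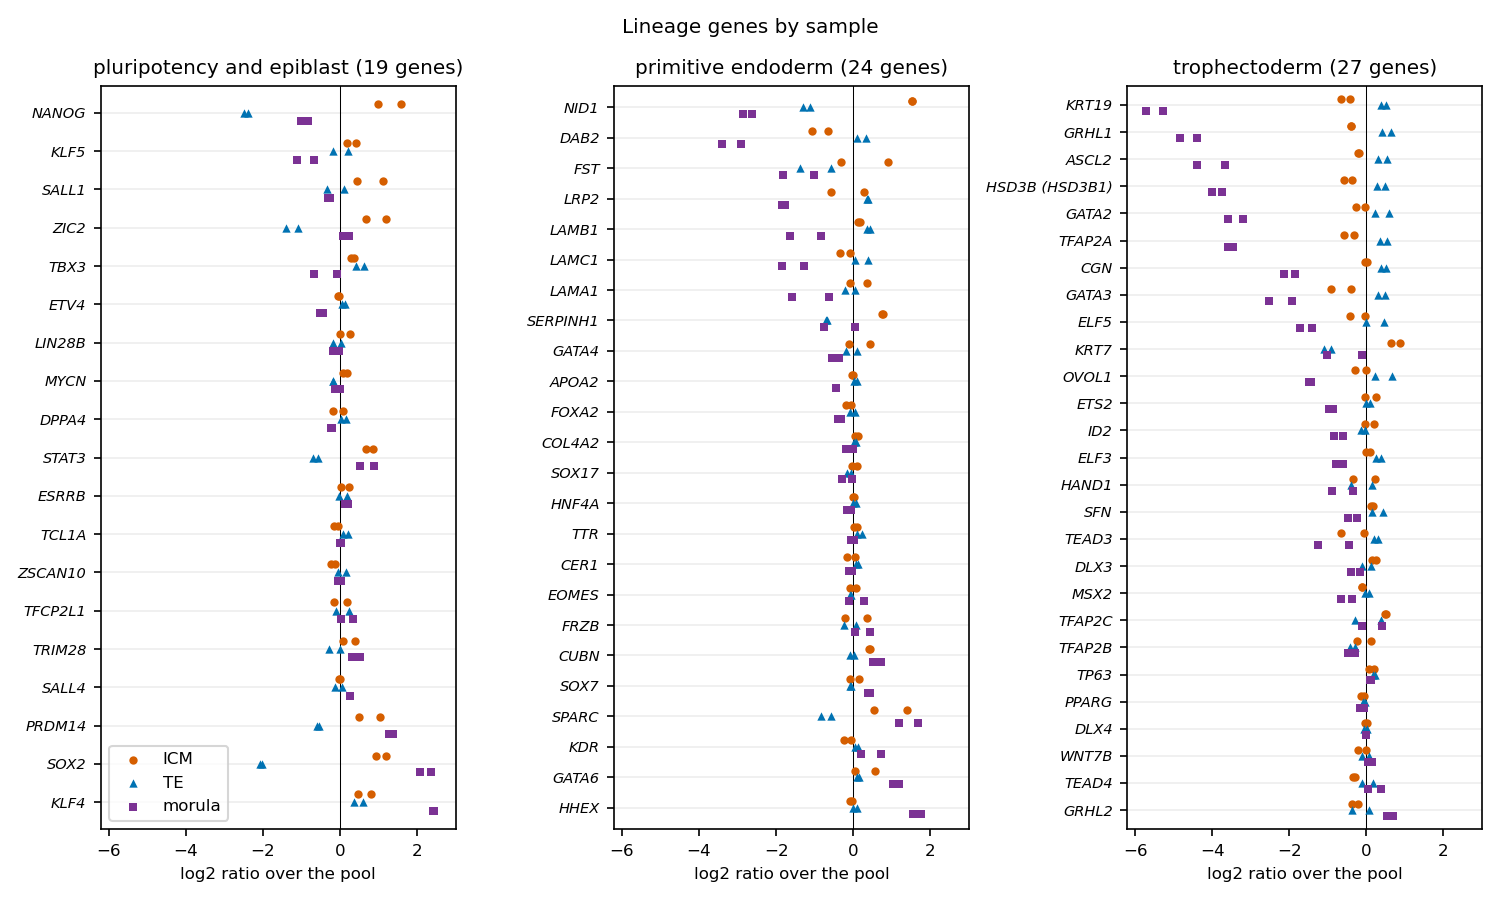
Log2 ratio over the blastocyst pool of the measured pluripotency, primitive endoderm and TE genes in each sample, with circles for the ICM, triangles for the TE and squares for morulae. Only a few pluripotency genes part the samples (*NANOG*, *SOX2*, *KLF4*), while several TE genes lie far to the left in morulae, such as *KRT19* at -5.28 and -5.73.

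Genes of the TE included many that were higher in the ICM of day 9 than in morulae. Of 27 measured genes of a TE list, 12 were higher in the ICM and none was lower by limma (2 in that direction at an unadjusted p under 0.05, the count that is also given beside each further list with no call), with a median difference of 0.74. *KRT19*, a keratin of simple epithelia, stood at -0.67 and -0.43 in the ICM, against -5.28 and -5.73 in morulae (31.1-fold, SE 0.26, adjusted p = 0.0001). *GRHL1*, a grainyhead factor of epithelia, stood at -0.39 and -0.40 in the ICM, against -4.41 and -4.84 in morulae (18.7-fold, SE 0.18, adjusted p = 6.18e-05). *ASCL2*, a helix-loop-helix factor of the placenta, stood at -0.20 and -0.22 in the ICM, against -3.66 and -4.40 in morulae (14.1-fold, SE 0.23, adjusted p = 0.000153). All 3 genes were somewhat below the pool in the ICM and far below it in morulae. *HSD3B*, a steroid dehydrogenase, rose 10.5-fold, *GATA2* 9.43-fold, *TFAP2A* 8.36-fold, *CGN* (cingulin) 4.01-fold, *GATA3* 3.00-fold and *ELF5* 2.53-fold. As the mean over their probes *CGN* (0.94 on the log2 scale), *GATA3* (0.90) and *ELF5* (0.88) were under 2-fold and not called. *ASCL2*, *HSD3B* and *TFAP2A* lay above background on 1 of the 2 morula arrays. *TEAD4*, *TFAP2C*, *HAND1*, *DLX3* and *ELF3* were not called, with differences of -0.53, 0.36, 0.56, 0.48 and 0.74. *CDX2* and *KRT18* were not analysed here.

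In the TE samples the same genes were higher still or close to the ICM. The median of the TE list was -0.12 and -0.04 in the ICM, with the TE at 0.16 and 0.19 and morulae at -0.60 and -0.84, and 1 member was not above background on both arrays of the ICM and 1 on both of the morula. Between ICM and TE, where 1.34% of all genes were called higher and 0.231% lower, 1 member of the list was higher in the ICM (*KRT7*) and 1 lower (*GATA3*). *GATA3* stood at -0.39 and -0.91 in the ICM, against 0.31 and 0.48 in the TE (2.07-fold lower in the ICM, adjusted p = 0.0496), with morulae at -1.93 and -2.54. This call against the TE was lost without ICM replicate 1, ICM replicate 2 or TE replicate 2 (-1.17, -0.93 and -0.70 on the log2 scale). It was also lost with normexp (adjusted p = 0.0661), with no replicate block (0.12) and as the mean over its probes (-0.50 on the log2 scale, adjusted p = 0.0688). *KRT7* stood at 0.87 and 0.65 in the ICM, against -0.11 and -1.01 in morulae (2.50-fold, SE 0.26, adjusted p = 0.0104), and at -1.10 and -0.91 in the TE (3.40-fold lower there than in the ICM, adjusted p = 0.0285). Its call against morulae was lost without ICM replicate 2 (adjusted p = 0.0788) or morula replicate 2 (0.0641), and that against the TE without any 1 of the 4 arrays compared (0.0584 to 0.213). The dissected ICM is known to hold TE cells, and the part of those cells in these differences was not tested.

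The pregnancy-associated glycoproteins (PAGs), placental proteins of ruminants that are related to pepsin, showed the same order more sharply. Of 11 measured PAG genes, 6 were higher in the ICM than in morulae and none was lower (0 at an unadjusted p under 0.05), with a median difference of 1.93. *PAG2* stood at -0.58 and -0.14 in the ICM, with the TE at 0.67 and 0.78 and morulae at -4.76 and -5.12, 23.9-fold higher in the ICM than in morulae (SE 0.20, adjusted p = 6.12e-05) and 2.12-fold lower than in the TE (adjusted p = 0.0462). *PAG6* (17.9-fold) and *PAG17* (16.6-fold) had closely similar values to each other, at -0.36 and -0.26 and at -0.43 and -0.26 in the ICM, against -4.34 and -4.60 and -4.24 and -4.55 in morulae. *PAG8* rose 9.05-fold, and *PAG9* and *PAG12* were not called (0.01 and 0.68 on the log2 scale). The list median was -0.24 and -0.18 in the ICM, with the TE at 0.49 and 0.42 and morulae at -2.16 and -2.12, in that order in both replicates. PAG genes are near copies of each other, so that probes of 1 member may bind another. The call of *PAG2* against the TE was lost without any 1 of the 4 arrays (-1.29 to -0.88 on the log2 scale). It was also lost with normexp (adjusted p = 0.0522), the series matrix values (0.05225) and no replicate block (0.0512), and as the mean over its probes (-0.93 on the log2 scale).

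Of 24 measured primitive endoderm genes, 7 were higher and 1 lower in the ICM than in morulae, with a median difference of 0.18. In the TE 6 were higher and 2 lower than in morulae, with a median difference of 0.16. *NID1*, the laminin and collagen linker nidogen 1, stood at 1.54 and 1.53 in the ICM, against -2.85 and -2.64 in morulae (19.4-fold, SE 0.17, adjusted p = 5e-05), and at -1.11 and -1.30 in the TE (6.68-fold lower there than in the ICM, adjusted p = 0.0033). *DAB2*, an endocytic adaptor of extraembryonic endoderm in mice, stood at -1.06 and -0.66 in the ICM, against -2.92 and -3.39 in morulae (4.92-fold, SE 0.25, adjusted p = 0.000963), and at 0.09 and 0.34 in the TE. The ICM was thus the highest of the 3 groups for *NID1* and intermediate for *DAB2*, whose difference from the TE was not called (-1.07, adjusted p = 0.0842). *LRP2*, the endocytic receptor megalin, and the laminin chains *LAMB1*, *LAMC1* and *LAMA1* were called higher than in morulae in both tissues. Their rise in the TE was 2.18, 1.64, 1.78 and 1.04 on the log2 scale, and none was called between ICM and TE. In the ICM *LRP2* rose 3.17-fold, and *LAMB1*, *LAMC1* and *LAMA1* rose 2.62-fold, 2.54-fold and 2.40-fold. *LAMA1* was not called without ICM replicate 1 (adjusted p = 0.0781), ICM replicate 2 (0.13) or morula replicate 1 (0.0942), and as the mean over probes *LAMC1* (0.84 on the log2 scale) and *LAMA1* (0.48) were under 2-fold. *FST*, follistatin, was the least secure call, with -0.31 and 0.89 in the ICM, against -1.82 and -1.03 in morulae (3.28-fold, SE 0.49, adjusted p = 0.04). It was lost with any 1 of the 4 arrays left out (0.0605 to 0.229). Without ICM replicate 2 the call of *NID1* against the TE was lost as well (adjusted p = 0.0567).

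By the probes used here, no transcription factor of the primitive endoderm list was called higher. *GATA6*, which is first in the lineage, stood at 0.05 and 0.58 in the ICM, against 1.19 and 1.02 in morulae (-0.79 on the log2 scale, adjusted p = 0.0133, under 2-fold). *GATA4* stood at -0.11 and 0.45 in the ICM, against -0.54 and -0.36 in morulae (0.62, adjusted p = 0.00941, under 2-fold). Both differed from morulae by less than 2-fold and in opposite directions. *SOX17*, *SOX7*, *HNF4A* and *FOXA2* had differences of 0.18, -0.38, 0.11 and 0.23, and none was called. With its own choice of probe, the paper ranks *HNF4A* among the genes most raised in the ICM over the TE. The probe used here differed by -0.03 between ICM and TE (adjusted p = 0.955 in limma), so the value of *HNF4A* depends on the probe. *HHEX*, a homeobox factor of endoderm, was the member that fell, with -0.08 and -0.04 in the ICM, against 1.55 and 1.75 in morulae (3.27-fold lower, SE 0.11, adjusted p = 0.000169; 1 of the 2 ICM arrays above background). *SPARC*, a collagen-binding matrix protein that parietal endoderm of mice secretes, stood at 0.54 and 1.38 in the ICM, against 1.20 and 1.68 in morulae (adjusted p = 0.199), and at -0.85 and -0.57 in the TE. *SPARC* samples of ICM and morula overlapped, and those of the TE lay apart from both (3.18-fold higher in the ICM, adjusted p = 0.0278, lost without any 1 of the 4 arrays, at up to 0.177).

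Some genes of matrix, adhesion and cytoskeleton were higher in the ICM, and more were not called. In the list of basement membrane and matrix genes 13 of 47 were higher and none lower (3 at an unadjusted p under 0.05; median difference 0.39), among them *AGRN*, *NID1*, *FBLN2* (fibulin 2) and *SDC1* (syndecan 1, a heparan sulfate proteoglycan). *FBLN2* stood at 0.76 and 0.39 in the ICM, against -2.11 and -3.39 in morulae (10-fold, SE 0.32, adjusted p = 0.000692), and *SDC1* at 0.03 and -0.09 in the ICM, against -2.72 and -2.72 in morulae (6.46-fold, SE 0.10, adjusted p = 4.13e-05). *HSPG2* (perlecan), *COL4A2* and *P4HB* were not called, with differences of 0.71, 0.19 and 0.78. Of 29 integrin and adhesion genes 8 were higher and none lower (0 at an unadjusted p under 0.05; median 0.20). *FLRT3* stood at 1.55 and 1.54 in the ICM, against -3.63 and -3.47 in morulae (34.2-fold, SE 0.24, adjusted p = 7.41e-05), the tetraspanins *CD63* and *CD151* rose 9.72-fold and 8.49-fold, and *EPCAM*, an epithelial adhesion protein, rose 5.22-fold. The ICM replicates of *FLRT3* were nearly equal and well above the pool, and 1 of the 2 morula arrays was above background.

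Of 46 cytoskeleton and caveola genes, 17 were higher and none lower (3 at an unadjusted p under 0.05; median 0.63). *CAV1*, the coat protein of caveolae, stood at 0.96 and 1.45 in the ICM, against -3.69 and -3.70 in morulae (29.9-fold, SE 0.16, adjusted p = 3.67e-05), and at -1.77 and -1.76 in the TE. *ACTB* stood at 0.85 and 1.10 in the ICM, against -3.95 and -3.98 in morulae (30.7-fold, SE 0.32, adjusted p = 0.000179), and at -1.55 and -1.81 in the TE. Both genes lay highest in the ICM and above the TE in both replicates, 7.84-fold for *CAV1* (adjusted p = 0.00283) and 6.29-fold for *ACTB* (adjusted p = 0.0161). Over the alternatives the difference of *CAV1* was as low as 1.54 from morulae and 1.13 from the TE on the log2 scale. For *ACTB* the lowest values were 2.95 and 1.51. *TMSB10*, *TPM4* and *ZYX* were not called, with differences of 0.35, 0.61 and 0.17. Without any 1 of the 4 arrays of ICM and TE the call of *ACTB* against the TE was lost (adjusted p up to 0.135), while that of *CAV1* held.

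Of 39 measured epithelial junction genes, 19 were higher and 3 lower in the ICM than in morulae, with a median difference of 0.84. The share lower, 7.69%, was near the 6.93% of all genes. *DSC2*, a cadherin of desmosomes, stood at -0.64 and 0.09 in the ICM, against -5.05 and -4.82 in morulae (25.2-fold, SE 0.15, adjusted p = 3.6e-05). *CLDN1*, a sealing claudin of tight junctions, stood at -0.37 and -0.37 in the ICM, against -3.95 and -4.09 in morulae (12.6-fold, SE 0.12, adjusted p = 3.6e-05). *PPL*, periplakin of the desmosomal plaque, rose 11-fold (1 of the 2 morula arrays above background), and *CTNNB1*, beta catenin, rose 2.49-fold. The 3 lower members included relatives of *CLDN1* and *DSC2*. *CLDN10*, a pore-forming claudin, stood at 0.73 and 0.30 in the ICM, against 2.96 and 3.69 in morulae (7.01-fold lower, SE 0.25, adjusted p = 0.000512), and *DSC3* fell 2.93-fold (adjusted p = 0.00038). *DSC2* and *DSC3*, and likewise *CLDN1* and *CLDN10*, were thus called in opposite directions. Other claudins were higher (*CLDN7*, *CLDN8*, *CLDN12* and *CLDN23*) or not called (*CLDN2* to *CLDN6*). *PKP3*, plakophilin 3, was 2.15-fold lower (1 of the 2 morula arrays above background), and was not called as the mean over its probes. The junction list stood at -0.08 and 0.01 in the ICM, with the TE at 0.16 and 0.23 and morulae at -0.70 and -0.88, and no member was called between ICM and TE.

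**Figure D4:**
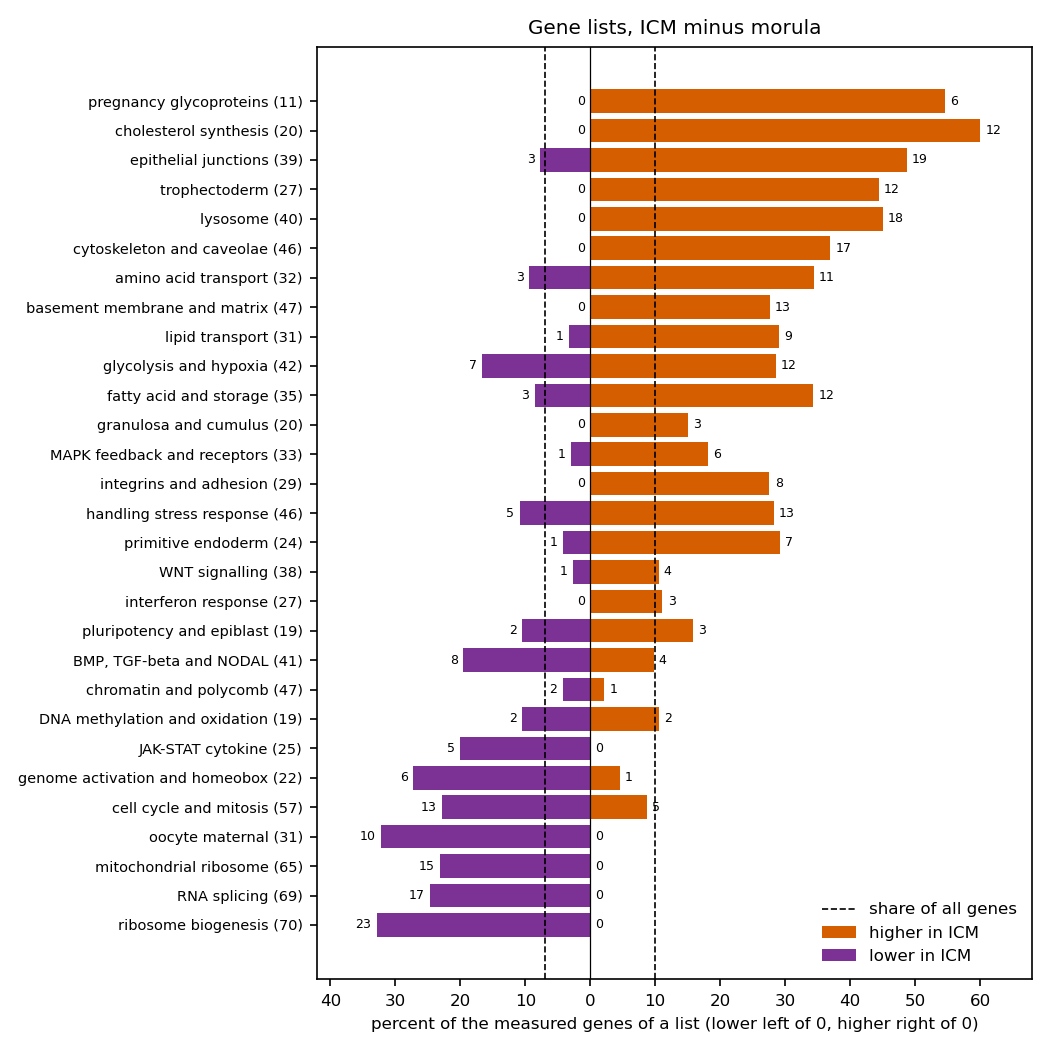
Share of the measured genes of each of 29 lists that were called higher (right of 0) or lower (left of 0) in the ICM than in morulae, in percent, with the number called at each bar and dashed lines at the shares over all genes (10.0% higher, 6.93% lower). Cholesterol synthesis (12 of 20 higher), PAGs and epithelial junctions have the longest bars to the right, and ribosome biogenesis (23 of 70 lower) and oocyte genes (10 of 31 lower) the longest to the left.

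Of 20 measured genes of cholesterol synthesis 12 were higher and none lower (1 at an unadjusted p under 0.05), 19 had a positive difference, and the median was 1.48. *CYP51A1*, the lanosterol demethylase, stood at -0.87 and -0.42 in the ICM, against -5.11 and -5.25 in morulae (23.2-fold, SE 0.19, adjusted p = 6.11e-05). *HMGCS1*, which makes the substrate of the rate-limiting reductase, stood at -0.65 and -0.86 in the ICM, against -3.93 and -4.06 in morulae (9.47-fold, SE 0.12, adjusted p = 4.39e-05). *SQLE*, squalene epoxidase, rose 7.20-fold and *IDI1*, isopentenyl diphosphate isomerase, 6.81-fold. All 4 enzymes were below the pool in the ICM and further below it in morulae. The TE held them higher: *HMGCS1* stood there at 0.21 and 0.32 (2.02-fold lower in the ICM, adjusted p = 0.0155) and *SQLE* at 0.85 and 0.89 (2.03-fold lower in the ICM, adjusted p = 0.0126), and 3 of the 20 members were lower in the ICM than in the TE. Both calls were lost without any 1 of the 4 arrays of ICM and TE, at up to 0.148 for *HMGCS1* and 0.124 for *SQLE*. *SREBF2*, the factor that switches on the pathway, was not called (0.51 on the log2 scale).

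Lipid transport and lysosome genes also held called members. Of 31 lipid transport genes 9 were higher and 1 lower (median 0.32). *APOA1*, the main apolipoprotein of high-density lipoprotein, stood at 0.62 and 0.87 in the ICM, against -5.03 and -4.43 in morulae (44.4-fold, SE 0.20, adjusted p = 4.29e-05), and *PDZK1*, a scaffold of the high-density lipoprotein receptor, rose 25.1-fold. Other apolipoproteins did not follow, with differences of 0.02 for *APOE* and 0.43 for *APOA2*, and *FABP2*, a fatty acid binding protein, fell 2.45-fold (1 of the 2 ICM arrays above background; not called after median centring or as the mean over its probes). Of 40 lysosome genes 18 were higher and none lower (5 at an unadjusted p under 0.05; median 0.73). *CTSZ* (cathepsin Z) stood at 0.20 and 0.57 in the ICM, against -3.99 and -4.17 in morulae (22-fold, SE 0.14, adjusted p = 3.6e-05), *CATD* (cathepsin D) at 0.32 and 0.19 in the ICM, against -3.92 and -4.40 in morulae (21.3-fold, SE 0.11, adjusted p = 2.7e-05), and *ARSA*, arylsulfatase A, rose 15.5-fold. Cathepsins D and Z were thus just above the pool in the ICM and far below it in morulae, while *CATB* (cathepsin B) differed by 0.96 and *ATP6V1A*, a subunit of the proton pump, by -0.37, neither called. The median of the lysosome list was -0.06 and -0.03 in the ICM, with the TE at 0.38 and 0.51 and morulae at -0.86 and -0.87.

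Of 35 genes of fatty acid metabolism and storage 12 were higher and 3 lower (median 0.29). The desaturase *FADS2* stood at -0.53 and -0.29 in the ICM, against -3.05 and -3.20 in morulae (6.55-fold, SE 0.12, adjusted p = 7.04e-05), and the elongase *ELOVL1* rose 7.45-fold. *FADS1* rose 10.2-fold by a probe saturated on 5 arrays, and by its brightest unsaturated probe the difference was 0.44 on the log2 scale (adjusted p = 0.0748). The acyl-CoA synthetases split, with *ACSL3*, which serves lipid droplets, at -0.35 and 0.22 in the ICM, against -2.30 and -2.86 in morulae (5.71-fold higher, SE 0.29, adjusted p = 0.0012), and *ACSL1* at 0.17 and 0.41 in the ICM, against 1.45 and 1.66 in morulae (2.41-fold lower, SE 0.15, adjusted p = 0.00154). As the mean over its probes *ACSL1* was not called, and neither was *ELOVL1*. *AGXT2L1* and *MFSD2*, both involved in phospholipid handling, were the other members that fell.

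Genes of glycolysis and hypoxia moved in both directions, 12 higher and 7 lower of 42 (median 0.31). *SLC16A7*, a transporter of pyruvate and lactate, stood at -0.44 and 0.15 in the ICM, against -4.14 and -4.71 in morulae (19.4-fold, SE 0.29, adjusted p = 0.000203; 1 of the 2 morula arrays above background). *PFKFB3*, which makes the activator of phosphofructokinase, stood at -0.19 and -0.57 in the ICM, against -4.08 and -4.25 in morulae (13.7-fold, SE 0.10, adjusted p = 2.7e-05). *TPI1*, triosephosphate isomerase, rose 5.36-fold, and *EPAS1*, the hypoxia-inducible factor 2 alpha, rose 5.57-fold (not called as the mean over its probes). On the other side stood genes whose ICM level was above that of the TE although it had fallen from the morula. *TKTL1*, a transketolase relative, stood at 0.87 and 1.13 in the ICM, with the TE at -1.45 and -1.92 and morulae at 2.61 and 3.57 (4.26-fold lower in the ICM than in morulae, SE 0.31, adjusted p = 0.0034). *AK4*, a mitochondrial adenylate kinase, stood at 0.96 and 0.82 in the ICM, with the TE at -1.91 and -2.21 and morulae at 2.29 and 2.27 (2.62-fold lower in the ICM than in morulae, SE 0.15, adjusted p = 0.00103). For both genes the ICM lay between the other groups with no overlap, 6.42-fold above the TE for *TKTL1* (adjusted p = 0.0152) and 7.73-fold for *AK4* (adjusted p = 0.0027). The call of *TKTL1* against the TE was lost without any 1 of the 4 arrays (adjusted p up to 0.143). *NDRG1* and *BNIP3L*, targets of hypoxia-inducible factors, fell 2.92-fold and 2.62-fold.

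Amino acid transporters moved in both directions. Of 32 measured genes 11 were higher and 3 lower (median 0.45). *SLC7A7*, the light chain of the exporter of cationic amino acids, stood at 0.64 and 0.83 in the ICM, against -3.20 and -3.29 in morulae (15.8-fold, SE 0.13, adjusted p = 3.63e-05), *SLC7A4* rose 11.1-fold, *SLC43A3* 8.30-fold, and *SLC38A2*, a sodium-coupled neutral amino acid transporter, 7.54-fold. *SLC1A5*, the glutamine transporter, stood at 0.98 and 0.61 in the ICM, against 2.71 and 3.41 in morulae (4.80-fold lower, SE 0.29, adjusted p = 0.002), and *SLC7A2*, an importer of arginine and lysine, fell 2.28-fold. The ICM was above the pool for both *SLC7A7* and *SLC1A5*, and the stages differed in opposite directions.

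Among receptors and regulators of the mitogen-activated protein kinase pathway, 6 of 33 were higher and 1 lower (median 0.24). *KIT*, the receptor of stem cell factor, stood at 1.63 and 1.61 in the ICM, against -1.66 and -1.50 in morulae (9.17-fold, SE 0.11, adjusted p = 3.8e-05; 1 of the 2 morula arrays above background), and at -1.06 and -1.17 in the TE. It was high in the ICM and low in both other groups, 6.64-fold above the TE (adjusted p = 0.00255). Other receptor tyrosine kinases were higher than in morulae and not called between ICM and TE, *ERBB2* 7.31-fold (1.11 and 0.66 in the ICM, against -1.72 and -2.26 in morulae), *MET* 3.81-fold and *ERBB3* 3.39-fold (not called as the mean over its probes). *FGFR2*, the receptor through which fibroblast growth factor 4 directs primitive endoderm in mice, was not called (0.29 on the log2 scale). *IER3*, an immediate early gene, fell 3.68-fold.

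In the list of BMP, TGF beta and NODAL signalling, 4 of 41 genes were higher (9.76%, beside 10.0% of all genes) and 8 lower, and the median of 0.03 turned to -0.01 under median centring. *ID1* and *ID3*, both targets of BMP, parted from each other. *ID1* stood at 1.10 and 0.98 in the ICM, against -0.63 and -0.89 in morulae (3.48-fold, SE 0.22, adjusted p = 0.0015), and at -1.44 and -2.15 in the TE (7.12-fold lower there than in the ICM, adjusted p = 0.00576). *ID3* stood at 1.45 and 0.72 in the ICM, against 2.68 and 3.33 in morulae (3.78-fold lower, SE 0.42, adjusted p = 0.0152; 1 of the 2 morula arrays above background). The ICM samples were above the pool for both, with morulae below it for *ID1* and above it for *ID3*. *BAMBI*, a decoy receptor that dampens the pathway, fell 5.61-fold (0.08 and -0.24 in the ICM, against 2.17 and 2.66 in morulae), while *NOG*, the BMP antagonist noggin, was 2.63-fold higher and *TGFBR3*, the co-receptor betaglycan, 2.80-fold higher. *NOG* was not called without ICM replicate 1 (adjusted p = 0.113) or morula replicate 1 (0.0989), *ID3* not without ICM replicate 1 (0.0624) or ICM replicate 2 (0.1), and *ID1* not against the TE without ICM replicate 2 or TE replicate 2 (up to 0.0585). *TGFBR3* was not called as the mean over its probes.

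Of 38 genes of WNT signalling 4 were higher and 1 lower (median 0.10), and the share higher, 10.5%, was near the 10.0% of all genes. *WNT6*, a secreted ligand, stood at -0.28 and -0.70 in the ICM, against -3.20 and -3.30 in morulae (6.79-fold, SE 0.12, adjusted p = 7.04e-05), *FZD8*, a receptor, rose 2.66-fold and *WNT5B* 2.36-fold. *DKK1*, a secreted antagonist, was the member that fell, with 0.01 and 0.13 in the ICM, against 1.81 and 2.33 in morulae (4-fold lower, SE 0.13, adjusted p = 0.000181). *SP5*, a target of WNT signalling counted in the list of homeobox and activation genes, fell 6.08-fold. The calls of *FZD8* (without ICM replicate 2, adjusted p = 0.0835, or morula replicate 2, 0.0772) and *WNT5B* (without ICM replicate 1, ICM replicate 2 or morula replicate 1, 0.115 to 0.157) rested on single arrays, and *WNT6* (0.78 on the log2 scale), *FZD8* (0.66) and *WNT5B* (0.74) were not called as the mean over their probes.

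Of 25 cytokine genes of the JAK-STAT list 5 fell, and none rose (2 at an unadjusted p under 0.05; median -0.20). *IL6* stood at -0.48 and -1.21 in the ICM, against 2.56 and 2.55 in morulae (10.5-fold lower, SE 0.21, adjusted p = 0.000155). *CXCR4*, the receptor of the chemokine CXCL12, stood at -0.20 and -0.12 in the ICM, against 2.68 and 2.77 in morulae (7.37-fold lower, SE 0.15, adjusted p = 9.49e-05; 1 of the 2 ICM arrays above background). *PIM1*, a kinase induced by STAT factors, fell 5.17-fold and *IL18* fell 2.39-fold. The morula replicates of *IL6* and of *CXCR4* were nearly equal. Of 27 interferon response genes 3 were higher (11.1%, near the 10.0% of all genes) and none lower (2 at an unadjusted p under 0.05; median 0.10). *IFIT2* stood at 1.77 and 1.55 in the ICM, against -0.46 and -0.70 in morulae (4.71-fold, SE 0.09, adjusted p = 4.99e-05), *USP18* rose 4.10-fold (1 of the 2 morula arrays above background) and *MX1* 2.96-fold (not called without ICM replicate 1, adjusted p = 0.0795, or as the mean over its probes, 0.59 on the log2 scale). The TE had *IFIT2* at 1.54 and 1.26, close to the ICM. *IFNT* was not analysed here.

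Of 31 measured genes of a list of maternal transcripts of the oocyte 10 were lower in the ICM and none higher (4 at an unadjusted p under 0.05), with a median difference of -0.50. *CPEB1* stood at -0.43 and -0.42 in the ICM, against 2.98 and 3.65 in morulae (13.4-fold lower, SE 0.18, adjusted p = 8.02e-05). *KPNA7* stood at -0.32 and -0.12 in the ICM, against 2.69 and 3.88 in morulae (11.3-fold lower, SE 0.33, adjusted p = 0.000623). *GDF9*, a growth factor secreted by oocytes, stood at -0.05 and -0.44 in the ICM, against 2.78 and 2.89 in morulae (8.45-fold lower, SE 0.16, adjusted p = 0.000103). Each stood near the pool in the ICM and several-fold above it in morulae. *ZP2*, a protein of the zona pellucida, and *BMP15*, the partner of *GDF9*, were not above background in the ICM and lay above it on 1 of the 2 morula arrays. *ZP2* stood at 0.54 and -1.07 in the ICM, against 2.96 and 2.15 in morulae (adjusted p = 0.00155), and *BMP15* at -0.06 and 0.09 in the ICM, against 1.62 and 2.05 in morulae (adjusted p = 0.00048), with no fold given for either. *DNMT1*, the maintenance DNA methyltransferase, fell 2.18-fold (adjusted p = 0.00749). *SOHLH2*, *MSL3* and *TCL1A* were not called, with differences of -0.12, -0.82 and -0.12.

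Among genes of genome activation and homeobox genes 6 of 22 were lower and 1 higher (median -0.26). Besides *ARGFX* and *KLF4*, *SP5* stood at 0.44 and -0.31 in the ICM, against 2.79 and 2.55 in morulae (6.08-fold lower, SE 0.20, adjusted p = 0.000316), *ISL1*, a LIM homeobox factor, fell 5.19-fold, and *NFYA*, a CCAAT box factor active at genome activation in mice, fell 3.64-fold. *MEIS2*, a homeobox cofactor, ran against them, at 0.84 and 0.99 in the ICM, with the TE at -1.00 and -0.96 and morulae at -0.29 and -0.51. It was 2.48-fold higher in the ICM than in morulae (SE 0.15, adjusted p = 0.00114) and 3.72-fold higher than in the TE (adjusted p = 0.00608). The call of *MEIS2* against the TE was lost without ICM replicate 2 or TE replicate 1 (adjusted p up to 0.0668), and neither call held for the mean over its probes. *EIF1AX* and *HSPA8* were not called, with differences of -0.57 and 0.06.

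In the list of DNA methylation and oxidation genes 2 of 19 were higher and 2 lower (median -0.10), shares of 10.5% each beside 10.0% and 6.93% of all genes. *DNMT3A*, a de novo methyltransferase, stood at -0.20 and 0.10 in the ICM, against -3.77 and -4.20 in morulae (15.3-fold, SE 0.20, adjusted p = 9.55e-05). *DNMT1* stood at 0.29 and 0.52 in the ICM, against 1.61 and 1.45 in morulae. *TDG*, the glycosylase that removes oxidized methylcytosine, stood at 0.05 and 0.21 in the ICM, against -3.79 and -4.15 in morulae (17.2-fold, SE 0.15, adjusted p = 4.49e-05). The rise of *DNMT3A* and *TDG* brought both to the level of the pool, and the TE was at the same level (0.38 and 0.38 for *DNMT3A*, -0.10 and 0.00 for *TDG*). The fall of *DNMT1* was smaller and was not called without ICM replicate 1 (adjusted p = 0.0643) or morula replicate 1 (0.0518), nor as the mean over its probes (-0.46 on the log2 scale). Of 47 chromatin and polycomb genes 1 was higher and 2 were lower (median -0.06), smaller shares than over all genes. *EZH2*, the polycomb methyltransferase of histone H3, stood at 0.44 and 0.27 in the ICM, against 1.90 and 2.02 in morulae (3.04-fold lower, SE 0.13, adjusted p = 0.000374), and *KDM5B*, a histone demethylase, fell 3.19-fold (not called as the mean over its probes). *KDM2B*, which targets polycomb to unmethylated CpG islands, stood at 0.84 and 1.10 in the ICM, with the TE at -0.63 and -0.63 and morulae at 0.08 and -0.26. It was 2.09-fold higher in the ICM than in morulae (SE 0.15, adjusted p = 0.00278) and 3.03-fold higher than in the TE (adjusted p = 0.00934). The rise of *KDM2B* was under 2-fold without ICM replicate 2 (0.86 on the log2 scale) or morula replicate 2 (0.87), after median centring (0.65) and as the mean over its probes (0.42), and its call against the TE was lost without ICM replicate 2 or either TE replicate (adjusted p up to 0.0929).

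In 3 lists of RNA and protein production some members were lower in the ICM, none was higher, and most were not called. In the ribosome biogenesis list 23 of 70 genes were lower and none higher (3 at an unadjusted p under 0.05; median -0.73), in the splicing list 17 of 69 were lower and none higher (5 at an unadjusted p under 0.05; median -0.58), and in the list of mitochondrial ribosomal proteins 15 of 65 were lower and none higher (6 at an unadjusted p under 0.05; median -0.56). These medians, beside 0.05 over all genes, were below 0 under each scaling tried. The lower level was not particular to the ICM. In the TE 35, 29 and 20 members of these lists, in the same order, were lower than in morulae, with medians of -1.01, -0.80 and -0.74. The median difference of ICM minus TE was 0.20, 0.28 and 0.11. *UTP20*, of the small subunit processome, stood at 0.35 and 0.35 in the ICM, against 2.31 and 2.42 in morulae (4.05-fold lower, SE 0.11, adjusted p = 0.00011). *DCAF13*, another processome factor, stood at -0.06 and -0.14 in the ICM, against 1.93 and 1.89 in morulae (4.02-fold lower, SE 0.09, adjusted p = 7.3e-05). Replicates of both lay close together in each group. *POLR1C*, a subunit shared by RNA polymerases I and III, stood at 0.42 and 0.47 in the ICM, against 2.23 and 2.77 in morulae (adjusted p = 0.000182), and was not above background in the ICM, so that no fold is given. *SNRPD2* and *LSM3*, of the spliceosomal cores, fell 2.71-fold and 2.68-fold, and *MRPL32* and *MRPL18* fell 2.85-fold and 2.59-fold. *HNRNPA1*, *HNRNPK*, *UTP6*, *EXOSC5*, *MRPL24* and *MRPS28* were not called, with differences of 0.59, -0.06, -0.22, 0.33, 0.77 and 0.13.

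Of 57 cell cycle genes 13 were lower (22.8%, beside 6.93% of all genes) and 5 higher (8.77%, below the 10.0% of all genes), with a median of -0.28. *CCNA1*, a cyclin of germ cells and early embryos, stood at 0.25 and 0.28 in the ICM, against 2.54 and 3.15 in morulae (5.95-fold lower, SE 0.18, adjusted p = 0.000213), and at -1.21 and -0.74 in the TE. *AURKA*, a spindle kinase, stood at -0.30 and -0.07 in the ICM, against 1.86 and 2.00 in morulae (4.32-fold lower, SE 0.15, adjusted p = 0.000234), and *CCNB1*, the mitotic cyclin B1, fell 3.61-fold. *CCND2*, a cyclin of the first gap phase, was among the 5 higher, at -0.25 and -0.34 in the ICM, against -1.39 and -1.99 in morulae (2.62-fold higher, SE 0.16, adjusted p = 0.00126). *MCM5*, of the replication helicase, was 2.84-fold higher (not called as the mean over its probes). The mitotic genes *AURKB* and *BUB3* were not called, with differences of 0.37 and -0.81. *CCNA1* was also 2.37-fold higher in the ICM than in the TE (adjusted p = 0.0255), a call that was lost without any 1 of the 4 arrays (up to 0.175).

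Genes of stress and handling, and of the cumulus cells that surround the oocyte, were listed because dissection and carry-over could move with the groups. In the stress list 13 of 46 were higher and 5 lower, and the median of 0.19 was -0.14 under median centring. *HMOX1* stood at 0.13 and -0.06 in the ICM, against -4.85 and -5.57 in morulae (37.9-fold, SE 0.27, adjusted p = 9.84e-05), *PRDX1*, a peroxiredoxin, rose 7.92-fold, *KLF6* 5.19-fold and *GRP78*, a chaperone of the endoplasmic reticulum, 4.02-fold (not called with the series matrix values, adjusted p = 0.126). *ATF3*, an immediate early gene, and *DNAJB1*, a heat shock protein, ran the other way. *ATF3* stood at -0.75 and -0.44 in the ICM, against 0.91 and 1.15 in morulae (3.08-fold lower, SE 0.13, adjusted p = 0.000319), and *DNAJB1* fell 4.15-fold, while the heat shock proteins *HSP90AA1* and *HSPA8* were not called (0.76 and 0.06). In undissected blastocysts the difference from morulae was 5.11 on the log2 scale for *HMOX1*, beside 5.24 in the dissected ICM, and -1.11 for *ATF3*, beside -1.62 in the ICM. In the list of granulosa and cumulus genes 3 of 20 were higher and none lower (0 at an unadjusted p under 0.05; median 0.27), *HSD3B* (also in the TE list), *GATM* (8.54-fold) and *COL1A2* (3.47-fold, not called without ICM replicate 1, adjusted p = 0.0655). The median of this list was -0.04 and 0.00 in the ICM and -0.62 and -0.07 in morulae, and *STAR* was not called (0.71). The part of handling and of carried-over cells in the differences above was not tested.

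Over all genes 1.34% were called higher and 0.231% lower in the ICM than in the TE. The named genes called between ICM and TE were 26, with 18 higher and 8 lower in the ICM. These genes show which differences from the morula were unlike in the tissues of the blastocyst, since the morula cancels when the TE is subtracted from the ICM. Between TE and morula 11.2% of all genes were called higher and 9.34% lower in the TE. Seen against the morula, the 18 genes fell into 3 shapes. *NANOG*, *ID1*, *KIT*, *NID1*, *FLRT3*, *CAV1*, *ACTB*, *MEIS2*, *KRT7* and *KDM2B* were higher in the ICM than in both other groups. *SOX2*, *AK4*, *TKTL1* and *CCNA1* had fallen in the ICM and lower still in the TE. *STAT3*, *PRDM14*, *ZIC2* and *SPARC* were not called between ICM and morula and were lower in the TE. The 8 genes lower in the ICM than in the TE were *HMGCS1*, *SQLE*, *GATA3*, *PAG2*, *ANXA3*, *PAGE4*, *ALDH1A3* and *ATP6V1A*, and all but the last were far below both tissues in morulae. *PAGE4* stood at -0.45 and -0.56 in the ICM, against 0.49 and 0.75 in the TE (2.18-fold lower in the ICM, adjusted p = 0.0126). *ALDH1A3* stood at -0.91 and -0.45 in the ICM, with the TE at 0.31 and 0.60 and morulae at -5.81 and -5.96, so that the gap between the tissues was small beside that between either of them and the morula. Under the 9 alternatives run for the contrast of ICM with TE, *AK4*, *CAV1*, *KIT* and *NANOG* were called in all of them, *SOX2* and *NID1* in all but the one without ICM replicate 2, and each of the other 20 lost the call with at least 1 replicate left out.

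**Figure D5:**
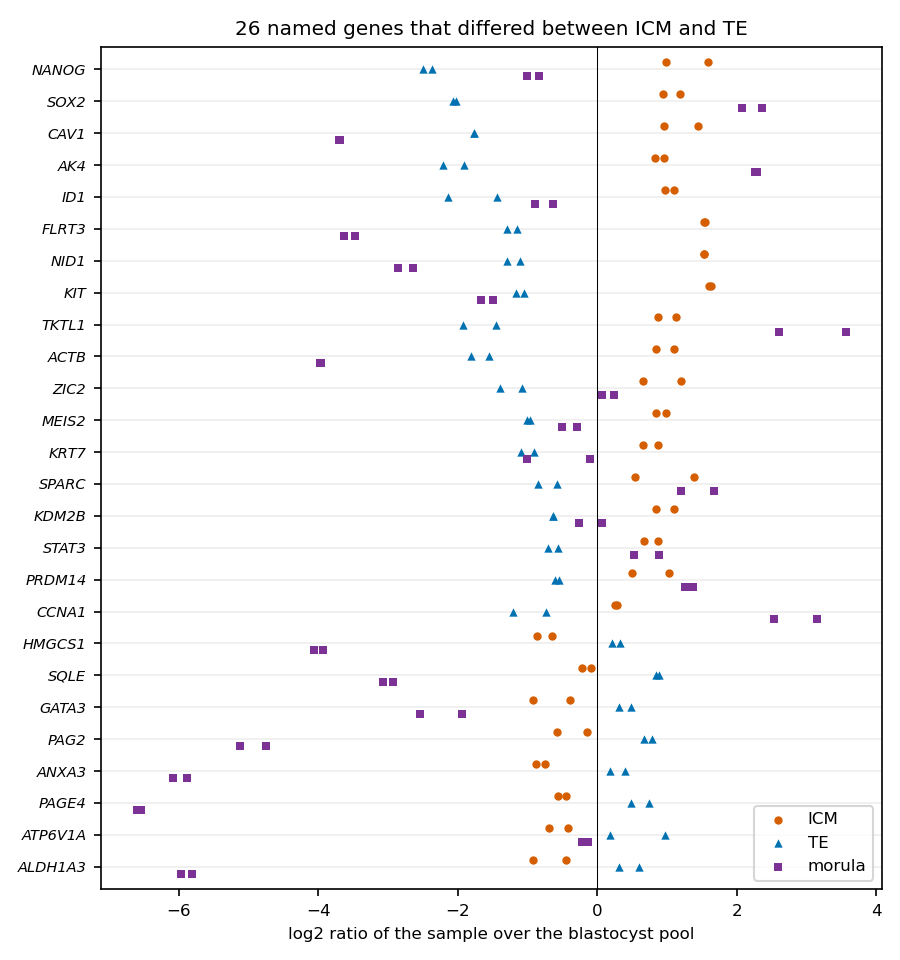
Log2 ratio over the blastocyst pool of the 26 named genes called between ICM and TE, with circles for the ICM, triangles for the TE and squares for morulae, 2 samples each, ordered by the difference of ICM minus TE. The first 18 genes have the ICM to the right of the TE. Among them the morula lies to the right of both for *SOX2*, *AK4*, *TKTL1*, *CCNA1* and *PRDM14* and to the left of both for *CAV1*, *FLRT3*, *NID1*, *KIT* and *ACTB*.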

How the data were processed

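Arrays of 8 samples were used, 2 each of ICM, TE, whole blastocyst and morula. As intensity, the authors deposited mean spot values and local backgrounds of both channels (Imagene), without normalization; the genome build and the place of the probes are not given in the sources used here. The series matrix deposited by the authors holds log2 ratios of sample over pool after loess and correction of gene-specific dye bias, and served as an alternative. In R 4.3.3 with limma 3.58.1 (and version 1.17.8 of data.table), each array was normalized by loess without background subtraction and with 1567 control spots left out, and a model of 4 group means plus dye orientation was fitted to 43653 gene probes, with 3 residual and 3.17 prior degrees of freedom (prior standard deviation 0.121). P-values were adjusted by Benjamini-Hochberg over all gene probes. Dye orientation equals the replicate number and is the replicate block; the differences between replicates correlated across probes with r = 0.460 between ICM and morula and 0.201 to 0.486 over all pairs of groups. The replicates are called biological by the study, and p-values measure the spread between these samples. That spread includes the whole blastocyst samples, which may share RNA with the pool (standard deviations of their log2 ratios 0.193 and 0.231). With only the 4 arrays of ICM and morula, 2120 of the 2125 calls were kept. The authors compared groups by a permutation F test (MAANOVA) on the probe nearest the 3′ end.

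Of the probes 27952 carried a symbol, for 12552 genes; 11600 symbols were current and 952 were synonyms. A probe was above background where its mean exceeded the local background by 2 standard deviations, which for single genes was judged in the sample channel only. Intensities of 65000 or more counted as saturated. For a gene not above background on both arrays of a group the ratios are given without a fold. Members and the 29 lists (1003 of 1349 genes with a probe, some in several lists) were chosen with earlier results of these data known. The rule named 260 genes: the 15 largest called differences in each direction, up to 4 called members per direction and 2 uncalled members of each list, and all members of the pluripotency, primitive endoderm and TE lists; the text gives most of them. Gene families in the closing section were chosen after their values were seen. The model was tested on simulated data. Alternatives were normexp with an offset of 50, median centring, quantile normalization, the series matrix values, the upper 60% of intensity, no replicate block, only the 4 arrays, a 1.5-fold or no minimum, the mean over probes and each replicate left out; the brightest unsaturated probe and the alternatives for ICM against TE were added after the data were seen. Figures were drawn with Python 3.11.15, matplotlib 3.10.9, pandas 2.3.3 and numpy 2.4.6. No promoter or probe sequence was used here.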

Additional observations from a re-analysis of the deposited data

Results flagged for a closer look

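Over all genes the limma test of ICM against TE called 1.34% higher and 0.231% lower in the ICM. For 26 named genes the change from the morula differed between the tissues by this test, in which the morula cancels (values are ICM minus TE on the log2 scale). For 5 of them the ICM lay above the morula and the TE below it: *NANOG* differed by 3.73 (2.21 in the ICM and -1.52 in the TE, each against the morula), *ID1* by 2.83 (1.80 and -1.03), *MEIS2* by 1.89 (1.31 and -0.58), *KRT7* by 1.77 (1.32 and -0.44) and *KDM2B* by 1.60 (1.06 and -0.54), and the fall in the TE was itself called for *NANOG* and *ID1*. Another 5 rose in both tissues and more in the ICM or only in it by the calls: *CAV1* by 2.97, *FLRT3* by 2.77, *NID1* by 2.74, *KIT* by 2.73 and *ACTB* by 2.65. The fall from the morula was larger in the TE for *SOX2* (3.12), *AK4* (2.95), *TKTL1* (2.68) and *CCNA1* (1.24). *ZIC2* (2.17), *SPARC* (1.67), *STAT3* (1.40) and *PRDM14* (1.34) were called lower than the morula in the TE and not in the ICM. The rise was larger in the TE for *HMGCS1* (-1.02), *SQLE* (-1.02), *GATA3* (-1.05), *PAG2* (-1.09), *ANXA3* (-1.11), *PAGE4* (-1.12) and *ALDH1A3* (-1.14), and *ATP6V1A* differed by -1.13 with no call against the morula in either tissue.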

How the results depend on the processing

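No named gene that was called, against morula or TE, changed direction under any alternative run for it, but the number of calls moved with scaling and summary. Median centring in place of loess called 986 genes higher and 1477 lower, and 1776 of the 2125 called genes kept their call. A 1.5-fold minimum called 2091 higher and 1790 lower, and no fold minimum 2771 and 2340. Averaging the probes of each gene called 740 higher and 626 lower; 1256 calls were kept and 4 genes reversed sign. Counts were within 1.5 times of the main ones with normexp (1241 and 872), quantile normalization (1255 and 870), the series matrix values (1180 and 940), the upper 60% of intensity (1243 and 816 of 9887 genes), only the 4 arrays compared (1255 and 870, of which 2120 calls were kept), the brightest unsaturated probe (1246 and 878), and no replicate block (1239 and 866). With a replicate left out, 1168 to 1331 genes were higher and 849 to 896 lower. The cause of these shifts was not tested, apart from the fold minimum, which acts by construction. Among gene lists, the medians of pluripotency, BMP signalling and stress genes changed sign under at least 1 scaling. Some large differences from morulae shrank under an alternative. On the log2 scale the lowest value was 1.51 for *GRHL1* (4.22 in the main fit), 1.75 for *NID1* (4.28) and 1.49 for *PDZK1* (4.65). It was 1.29 for *PFKFB3* (3.78) and 1.01 for *PAG17* (4.05). Signal over background limited 118 genes in the ICM and 235 in morulae, which were not above background on both arrays of the group, 47 of them in both.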

Other observations

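Several gene families outside the lists were looked at after their values had been seen, and are described here without a test of the family, beside 10.0% of all genes higher and 6.93% lower. All 3 measured genes of the mitochondrial glycine cleavage system were lower in the ICM than in morulae: *GLDC* stood at 0.07 and -0.18 in the ICM, against 3.00 and 4.09 in morulae (12.1-fold lower), *AMT* at 0.25 and -0.07 in the ICM, against 2.61 and 2.96 in morulae (6.47-fold lower), and *GCSH* at -0.30 and -0.48 in the ICM, against 1.53 and 1.89 in morulae (4.28-fold lower). *TDH*, which makes glycine from threonine, fell 10.8-fold. Of 12 genes of purine synthesis and salvage 5 were lower and 2 higher. *PRPS1* (6.25-fold), *HPRT1* (5.28-fold), *GART* (5.27-fold), *IMPDH1* (4.30-fold) and *PPAT* (2.90-fold) fell, while *GMPS*, the last step to GMP, stood at 0.34 and 0.34 in the ICM, against -3.14 and -3.15 in morulae (11.2-fold higher, adjusted p = 2.7e-05 in limma), and *APRT* rose 2.17-fold.

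Of 13 genes of iron and heme handling 5 were higher and 1 was lower. *TFRC*, the transferrin receptor that brings iron in at the cell surface, stood at 0.16 and -0.16 in the ICM, against 2.79 and 3.76 in morulae (9.70-fold lower), while *SLC25A37*, *HMOX1*, *SLC11A2* (the endosomal iron transporter, 8.18-fold), *FTL* (ferritin light chain, 2.48-fold) and *SLC40A1* (the exporter ferroportin, 2.10-fold) were higher. Annexins, which bind membranes in the presence of calcium, were higher for 6 of 9, led by *ANXA3* (35.9-fold, 1 of the 2 morula arrays above background), *ANXA4* (18.2-fold) and *ANXA8* (8.27-fold). Of 17 HOX genes *HOXA11* (7.74-fold, 1 of the 2 ICM arrays above background), *HOXA9* (7.20-fold) and *HOXB7* (2.03-fold) were lower and none was higher. Of 16 genes of retinoid handling 2 were higher and 2 lower, with a median difference of 0.08. Among its retinaldehyde dehydrogenases *ALDH1A1* stood at 0.18 and 0.58 in the ICM, against 2.85 and 3.17 in morulae (6.19-fold lower). *ALDH1A3* rose, and *ALDH1A2* was not called (0.44 on the log2 scale). Of 37 keratin genes 4 were higher and 1 lower, shares near or below those of all genes, and the lower one, *KRT5*, was not above background in either group. Besides *RGS2*, the regulators *RGS16* (10.1-fold) and *RGS10* (2.47-fold) fell, and *RGS4* was 2.41-fold higher, of 19 measured.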
